A study of Mus musculus with 6 samples.

Results

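Drug metabolism genes of the ileal mucosa were examined in duoxa-/- mice and wt littermates. The 39 genes were named by their function, and earlier results of these data were known when they were chosen. They are xenobiotic receptors, targets of the aryl hydrocarbon receptor, cytochrome P450 enzymes, esterases and other phase I enzymes, conjugation enzymes and efflux pumps. Of these, 34 had a probe set annotated to them alone and were measured, among 18193 genes with such a probe set. Ugt1a1 and Gsta1 were read only by probe sets annotated to several genes and have no value here, and Cyp2c66, Por and Ces2c were not analysed here. Where a gene had more than 1 probe set, the one with the highest mean over the 6 arrays stood for it.

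The mice were 3-month-old females of the 129S6 strain, and the tissue was mucosa of the terminal ileum, where the small intestine ends. Duoxa-/- mice lack the maturation factors of the dual oxidases, epithelial enzymes that make hydrogen peroxide and depend on those factors to leave the endoplasmic reticulum. There were 3 duoxa-/- and 3 wt samples, and every sample combined RNA of 2 to 3 animals. A cage housed 1 litter and supplied 1 pool per genotype, from 3 cages in all. The question was which ileal genes respond to the loss of Duoxa where both genotypes live in the same cage. Each pool was read on 1 array. The precision of every value is therefore limited by having 3 arrays per genotype, and p-values measure only the spread between pools, not between animals.

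Drug metabolism in the gut wall runs in steps. Receptors such as PXR and CAR, which sense foreign compounds and bile acids, and the aryl hydrocarbon receptor (AHR), which senses planar aromatic and indole compounds, switch on enzyme genes. Phase I enzymes, mainly cytochrome P450s and carboxylesterases, oxidise or hydrolyse a compound. Phase II enzymes couple it to glucuronate, sulfate or glutathione, and pumps of the apical membrane return it to the lumen. In the small intestine most of these genes are expressed by enterocytes, the absorptive cells of the villus.

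All levels are the deposited log2 values, on which 1 unit is a doubling, and all genotype differences are duoxa-/- minus wt on that scale. Duoxa2, the check of the genotype, read 5.90, 5.55 and 5.92 in the duoxa-/- pools of cages 1, 2 and 3, against 8.81, 8.36 and 7.24 in the wt pools. The groups did not overlap, and the difference was -2.34 (limma adjusted p = 0.760). The 6 arrays had medians of 6.55 to 6.60, and any 2 of them correlated over all probe sets at 0.994 to 0.998 (Pearson's r). The tissue label was checked against ileal enterocyte markers, 7 of them measured. Fabp6, the ileal bile acid binding protein, averaged 14.72 ± 0.09 in duoxa-/- pools and 14.72 ± 0.07 in wt pools (SD, n = 3 each). Fgf15, the dimmest of the 7, averaged 9.01 ± 0.18 in duoxa-/- pools and 8.88 ± 0.46 in wt pools. These levels do not show whether all pools came from the same stretch of ileum. Lactase (Lct) was the one measured enterocyte marker of 19 below 6.58, the median of all probe sets.

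No drug metabolism gene separated the genotypes. At a limma adjusted p under 0.05 over all genes, 0 of the 34 were called in either direction, against 0% of all genes, and their adjusted p values lay between 0.811 and 0.972. Duoxa2, the check of the genotype, was not called either (limma adjusted p = 0.760), though its unadjusted limma p of 0.00012 was the smallest of all 18193 genes. The count of 0 therefore cannot show that the 34 genes are unchanged. At an unadjusted p under 0.05 the count was 0 of 34, against 5.53% of all genes. With cage as a block in the fit, 6 of the 34 had an unadjusted p under 0.05 (6.41% of all genes did), and 0 passed adjustment. Those 6 were Cyp3a25, Ces2a, Fmo5, Ephx2, Gsta3 and Nat8f5, and in each of them all 3 within-cage differences were below 0. For none of the 34 genes did the duoxa-/- pools lie wholly below or wholly above the wt pools, which was so for 6.46% and 5.08% of all genes.

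The signs of the differences leaned one way without any single gene passing. Of the 34 genes, 30 had a mean difference below 0, against 53.8% of all genes, and 12 were below 0 within all 3 cages, against 16.6% of all genes. None was higher in all 3 cages, against 13.5% of all genes. The median difference over the 34 was -0.16, beside -0.01 over all genes. Within cage 1 the median over the 34 was -0.22, with 8 genes lower by 1.5-fold or more in the duoxa-/- pool, against 1.85% of all genes. Within cage 2 it was -0.20, with 5 such genes, against 1.01% of all genes. Within cage 3 it was 0.03, with 0 such genes, against 0.203% of all genes, and 14 of the 34 were lower at all. Leaving out 1 duoxa-/- pool gave a median of -0.06 (cage 2 left out) or -0.34 (cage 3 left out). Leaving out both pools of a cage gave -0.09 for cage 1 and -0.27 for cage 3, and the count of lower genes lay between 23 and 32 over these and the other pools left out. This lean was known from earlier results on the same arrays and is not independent evidence.

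**Figure D1:**
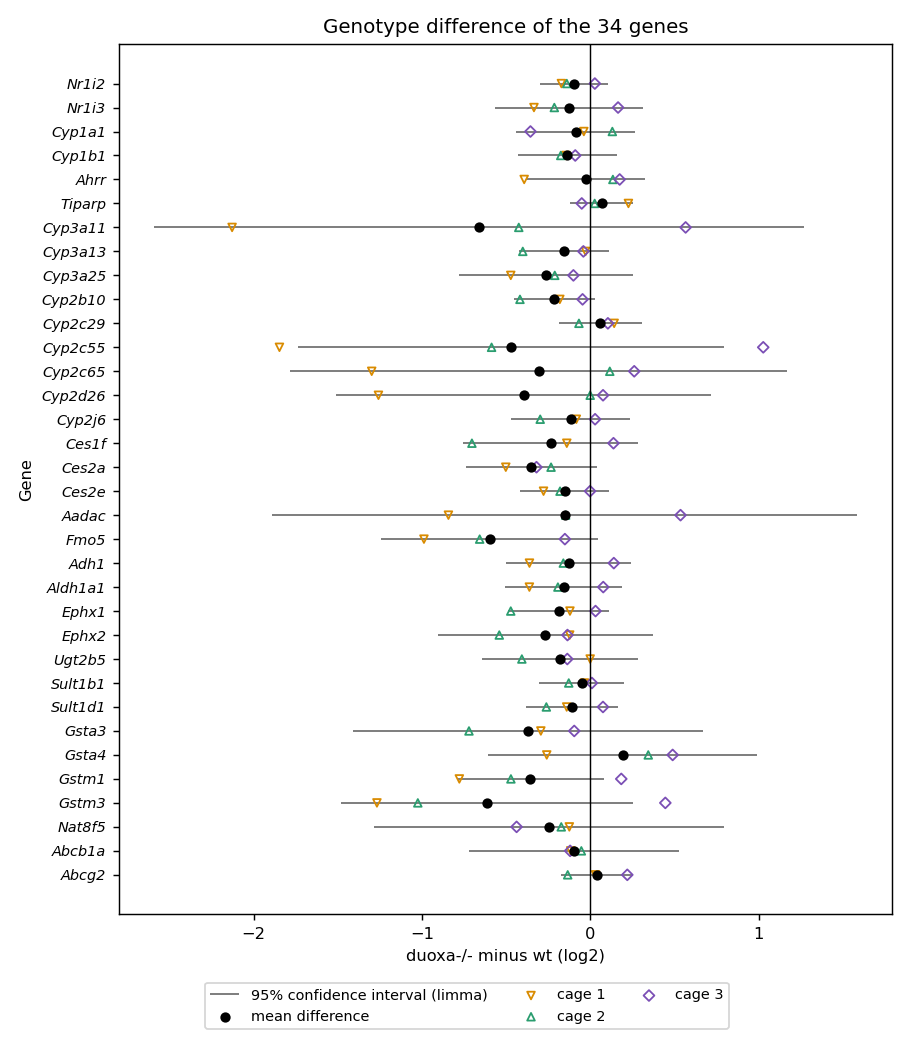
Genotype difference of each of the 34 genes, duoxa-/- minus wt on the log2 scale (x axis), with genes down the page by class. Black points are means of 3 pools per genotype, and open symbols are the differences within cages 1, 2 and 3. Bars are 95% confidence intervals from the limma fit without a cage term. Every such interval holds 0, and the widest belongs to Cyp3a11 (-2.59 to 1.27). With cage as a block in limma, 6 of the 34 had an unadjusted p under 0.05.

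The larger pattern was between cages. In 17 of the 34 genes both pools of cage 3 lay above all 4 pools of cages 1 and 2, against 8.4% of all genes, and in 3 (Cyp1b1, Ahrr and Adh1) both lay below them, against 9.16% of all genes. At an unadjusted p under 0.05 in limma's F-test between cages, with genotype in the fit, there were 19 of 34, against 6.21% of all genes. After adjustment over all genes 0 of the 34 passed, against 0.011% of all genes (2 genes), and the smallest adjusted p among the 34 was 0.0721. Cage 3 exceeded the mean of cages 1 and 2 by a median of 0.54 over the 34 genes in duoxa-/- pools and by 0.21 in wt pools, beside -0.01 for all genes in either genotype. In 24 of the 34 it was higher in both genotypes, against 26.3% of all genes. The 34 genes were chosen with earlier results on these arrays known, so these counts are not independent evidence. The count of genes passing the F-test depended on single pools: with 1 pool left out, 6 of the 34 passed where it was either pool of cage 1, and 4 where it was the wt pool of cage 3.

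**Figure D2:**
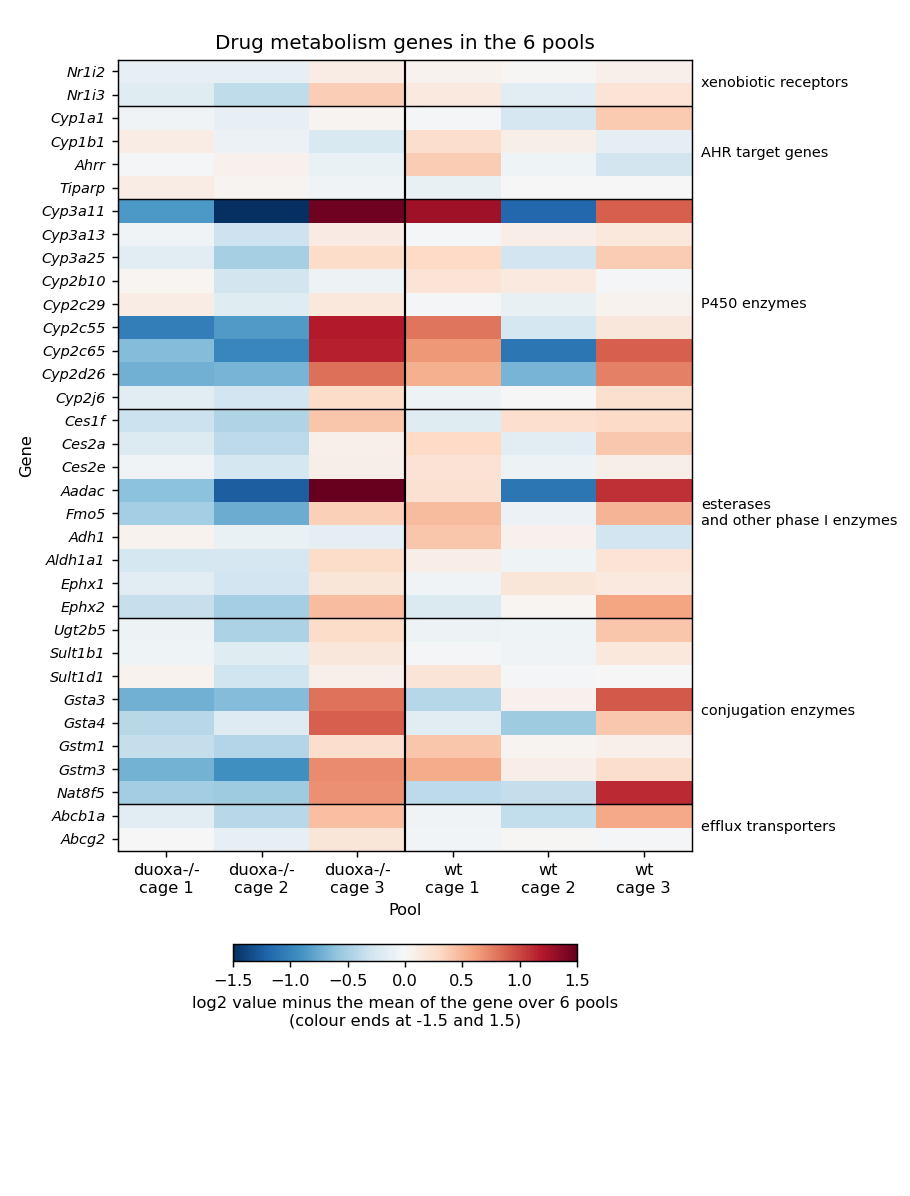
Values of the 34 genes (rows, by class) in the 6 pools (columns, duoxa-/- left of wt), as the log2 value minus the mean of the gene over the 6 pools; red is above that mean and blue below, and colour ends at -1.5 and 1.5. Both cage 3 columns and the wt pool of cage 1 are red for Cyp3a11, Cyp3a25, Cyp2c55, Cyp2c65 and Cyp2d26, while the duoxa-/- pools of cages 1 and 2 and the wt pool of cage 2 are blue for Cyp3a11, Cyp2c65 and Aadac.

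Among the receptors, Nr1i2, which encodes PXR, varied little. It read 9.51, 9.51 and 9.74 in the duoxa-/- pools of cages 1, 2 and 3, against 9.68, 9.65 and 9.72 in the wt pools. The difference was -0.09 (SE 0.09; limma adjusted p = 0.834). Both cage 3 pools lay above the other 4, by 0.14 over the mean of cages 1 and 2, and a dimmer probe set gave a cage 3 shift of 0.33. Nr1i3, which encodes CAR, was dimmer than the median of all probe sets, with 5.89, 5.69 and 6.45 in duoxa-/- pools against 6.22, 5.90 and 6.28 in wt pools. It differed by -0.13 (SE 0.19; limma adjusted p = 0.888), and both cage 3 pools were above the other 4, the mean of cage 3 being 6.36 against 6.05 in cage 1 and 5.80 in cage 2.

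The 4 AHR targets had a median genotype difference of -0.06. Cyp1a1, the P450 most strongly induced through AHR, was near the low end of the array, with 4.37, 4.31 and 4.47 in duoxa-/- pools against 4.41, 4.18 and 4.83 in wt pools. Its difference was -0.09 (SE 0.15; limma adjusted p = 0.901). At this brightness RMA compresses differences, so a change in so dim a gene may not be detectable. Its promoter is shown because it is the textbook AHR target (chr9:57697363-57697662, plus strand, GRCm38.p6, RefSeq). Capitals mark the letters GCGTG, the core of the sites that AHR binds, which stand once in this window. The match describes the letters and does not show that AHR binds there.

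Cyp1a1: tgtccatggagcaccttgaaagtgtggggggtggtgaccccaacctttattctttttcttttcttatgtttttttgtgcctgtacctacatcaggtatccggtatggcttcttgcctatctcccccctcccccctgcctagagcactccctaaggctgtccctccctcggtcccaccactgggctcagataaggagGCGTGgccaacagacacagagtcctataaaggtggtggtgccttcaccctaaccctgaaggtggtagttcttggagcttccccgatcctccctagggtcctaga

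Cyp1b1, a second AHR-induced P450, read 7.81, 7.60 and 7.46 in duoxa-/- pools against 7.95, 7.78 and 7.55 in wt pools. It was lower in the duoxa-/- pool of every cage (-0.18 to -0.09; mean -0.14, SE 0.13; limma adjusted p = 0.834), and both cage 3 pools lay below the other 4. Its 2 dimmer probe sets gave -0.18 and 0.09, and the average of all 3 gave -0.07. Tiparp, an ADP-ribosyltransferase that represses AHR, read 9.92, 9.84 and 9.76 in duoxa-/- pools against 9.70, 9.82 and 9.81 in wt pools. Its difference of 0.07 (SE 0.08; limma adjusted p = 0.865) was positive, and 2 further probe sets of Tiparp gave 0.21 and 0.29. Ahrr, the AHR repressor, lay between 5.0 and 5.65 in the 6 pools and differed by -0.03 (SE 0.15). Of the 4 AHR targets, 1 (Cyp1a1) had both cage 3 pools above the others, against 8.4% of all genes. In 2 of them both lay below, against 9.16% of all genes.

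The P450 genes held the widest range of the list, and Cyp3a11 the widest of all 34. Cyp3a11, a major drug-oxidising P450 of mouse liver and gut and a target of PXR, read 9.57, 8.83 and 11.89 in the duoxa-/- pools of cages 1, 2 and 3, against 11.70, 9.25 and 11.33 in the wt pools. Both pools of cage 3 and the wt pool of cage 1 were high, and the other 3 were low, so that each genotype held high and low pools. The mean of cage 3 was 11.61, that of cage 1 was 10.63 and that of cage 2 was 9.04, a span of 2.57 or 5.93-fold (F-test adjusted p = 0.576). The mean genotype difference of -0.66 (1.58-fold lower, SE 0.84; limma adjusted p = 0.870) was made of -2.13 in cage 1, -0.42 in cage 2 and 0.57 in cage 3. Of the 34 genes, 3 (Cyp3a11, Gstm3 and Fmo5) were lower by 1.5-fold or more on average, against 0.11% of all genes.

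The other 2 CYP3A genes varied over smaller ranges. Cyp3a25 read 11.93, 11.60 and 12.37 in duoxa-/- pools against 12.40, 11.81 and 12.47 in wt pools, lower in the duoxa-/- pool of each cage by 0.10 to 0.47. Its mean difference was -0.26 (SE 0.22; limma adjusted p = 0.826), and the SE was 0.10 with cage as a block (adjusted p = 0.741). Cyp3a13, a CYP3A form known from mouse intestine, read 12.05, 11.80 and 12.23 in duoxa-/- pools against 12.08, 12.20 and 12.27 in wt pools. Its difference was -0.16 (SE 0.12; limma adjusted p = 0.819), and its cage means spanned 0.25, against 0.72 for Cyp3a25 and 2.57 for Cyp3a11.

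The promoters of these 3 relatives are shown because the genes belong to one subfamily and spread so differently between cages. Each window runs from 250 bases before to 50 bases after a start in RefSeq, build GRCm38.p6, all on the minus strand and printed 5′ to 3′ along the gene. Capitals mark AGGTCA and AGTTCA, read on both strands, the hexamers to which PXR, CAR and other nuclear receptors bind. The windows are chr5:145879805-145880104 for Cyp3a11, chr5:146009568-146009867 for Cyp3a25 (the first by coordinate of its 2 listed starts) and chr5:137921570-137921869 for Cyp3a13.

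Cyp3a11: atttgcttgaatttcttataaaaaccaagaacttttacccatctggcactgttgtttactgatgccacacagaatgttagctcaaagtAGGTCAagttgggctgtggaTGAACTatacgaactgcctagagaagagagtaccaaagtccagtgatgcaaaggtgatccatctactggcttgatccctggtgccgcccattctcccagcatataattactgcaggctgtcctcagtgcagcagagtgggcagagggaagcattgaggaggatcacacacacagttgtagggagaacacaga
Cyp3a25: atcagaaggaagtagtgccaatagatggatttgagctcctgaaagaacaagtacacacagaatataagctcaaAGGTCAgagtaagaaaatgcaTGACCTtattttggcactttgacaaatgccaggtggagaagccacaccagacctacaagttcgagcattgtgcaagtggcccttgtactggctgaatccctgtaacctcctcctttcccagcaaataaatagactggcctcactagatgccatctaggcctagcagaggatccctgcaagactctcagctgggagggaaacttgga
Cyp3a13: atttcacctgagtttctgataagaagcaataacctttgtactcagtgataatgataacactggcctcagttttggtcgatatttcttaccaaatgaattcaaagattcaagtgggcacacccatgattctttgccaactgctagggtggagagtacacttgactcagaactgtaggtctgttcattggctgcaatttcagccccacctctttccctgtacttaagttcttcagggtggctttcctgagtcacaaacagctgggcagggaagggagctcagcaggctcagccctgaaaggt

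The Cyp3a11 and Cyp3a25 windows held 2 such hexamers each, and in the Cyp3a13 window these letters did not occur. Across the table, 27.7% of 32851 windows held at least 1 of them, and 13 of the 37 windows listed for 31 of the measured genes did (35.1%). GCGTG, read on both strands, stood in 32.4% of all windows and in 10 of these 37. The letters TGACNNNGC, a core of the electrophile response element, stood in 12.4% of all windows and in 4 of the 37. These matches describe the letters and say nothing of binding.

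Of the CYP2 genes, Cyp2c55, Cyp2c65 and Cyp2d26, whose pool values are given after they were seen, were also low in the duoxa-/- pools of cages 1 and 2 and high in the wt pool of cage 1. Cyp2c65, a CYP2C enzyme of the mouse gut, read 8.44, 8.12 and 10.25 in duoxa-/- pools against 9.74, 8.0 and 9.99 in wt pools. Its probe set may also read close relatives. Cage 3 was 1.97 above the mean of cages 1 and 2 in duoxa-/- pools and 1.12 above it in wt pools (F-test adjusted p = 0.386). Cyp2d26 read 9.66, 9.68 and 11.21 in duoxa-/- pools against 10.91, 9.68 and 11.14 in wt pools. In both genes the 2 cage 3 pools were the highest, the wt pool of cage 1 came next, and the 3 remaining pools were close together.

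Cyp2c55, which oxidises arachidonic acid in the mouse gut, read 7.75, 7.93 and 9.98 in duoxa-/- pools against 9.59, 8.52 and 8.95 in wt pools. Its genotype difference turned with the cage, -1.85 in cage 1, -0.59 in cage 2 and 1.03 in cage 3, a mean of -0.47 (SE 0.55; limma adjusted p = 0.859). It was the one gene of the 34 that was higher by 1.5-fold or more in the duoxa-/- pool of cage 3, against 0.242% of all genes. Cyp2b10, the classical CAR target, was dim, with 6.07, 5.77 and 5.97 in duoxa-/- pools against 6.25, 6.18 and 6.02 in wt pools. It had the smallest genotype p of the P450 genes and differed by -0.21 (SE 0.10; limma adjusted p = 0.811), while its cage means spanned 0.18. Dimmer probe sets of Cyp2b10 gave genotype differences of -0.008 and -0.19. Cyp2j6 had a cage span of 0.40 and a genotype difference of -0.12, and the dim Cyp2c29 a span of 0.26 and a difference of 0.06.

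**Figure D3:**
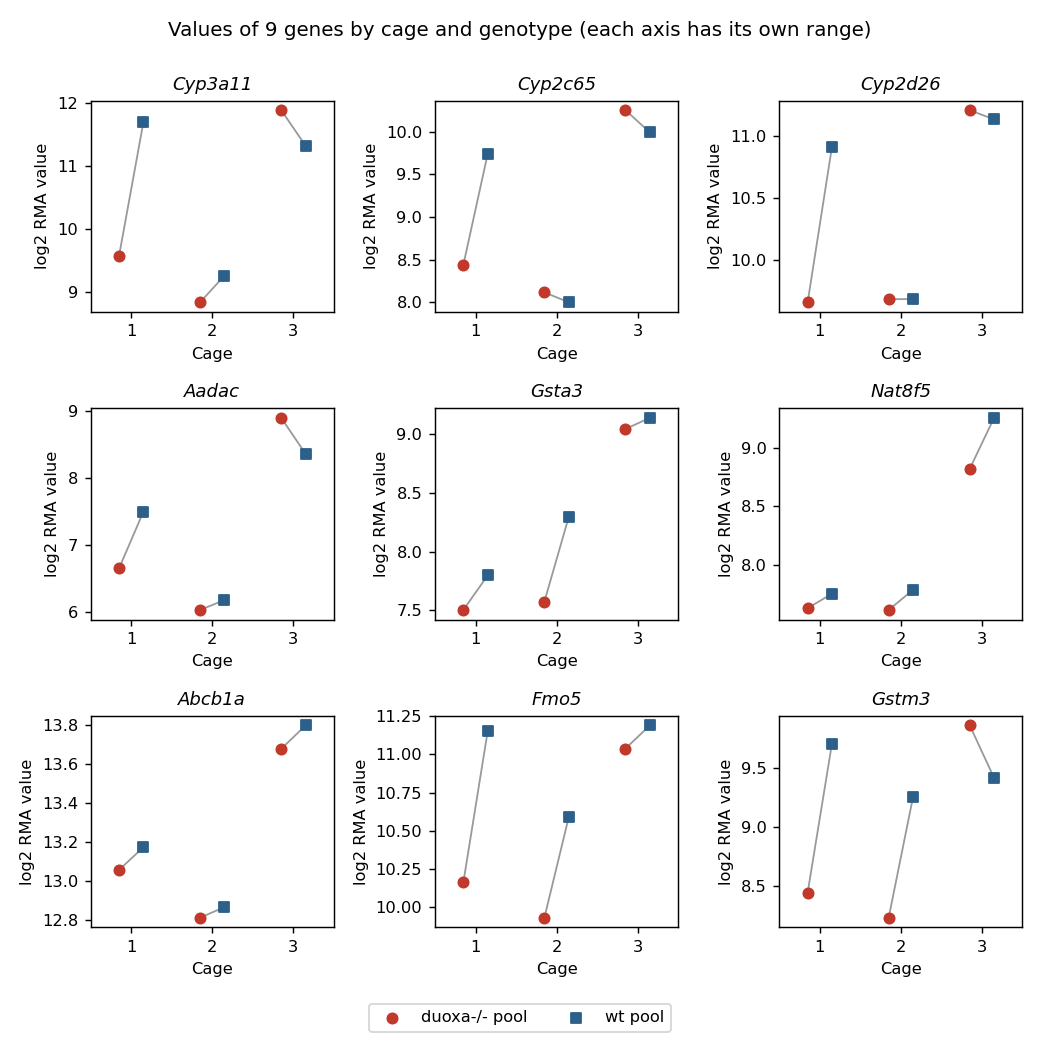
Log2 values (y axis, own range in each panel) of 9 genes in cages 1, 2 and 3 (x axis), with the duoxa-/- pool (red circle) left of the wt pool (blue square) and a line joining the pools of a cage. Both cage 3 pools are the highest in Cyp2c65, Cyp2d26, Aadac, Gsta3, Nat8f5 and Abcb1a, and in Cyp3a11, Fmo5 and Gstm3 the wt pool of cage 1 reaches the level of a cage 3 pool.

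All 9 measured esterases and other phase I enzymes had mean differences below 0, against 53.8% of all genes, with a class median of -0.19. Of the 9, 4 were lower in all 3 cages, against 16.6% of all genes. Fmo5, a flavin monooxygenase, had the smallest genotype p of the 34. It read 10.16, 9.93 and 11.04 in duoxa-/- pools against 11.15, 10.59 and 11.19 in wt pools. The difference of -0.60 (1.51-fold lower, 95% interval -1.24 to 0.05; limma adjusted p = 0.811) had parts of -0.99, -0.66 and -0.15 in cages 1, 2 and 3. Its other 2 probe sets gave -0.64 and -0.43. With cage as a block the SE was 0.15 in place of 0.28, and the adjusted p 0.741.

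Ces2a, a carboxylesterase that hydrolyses ester drugs and lipids, read 10.59, 10.39 and 10.87 in duoxa-/- pools against 11.09, 10.63 and 11.19 in wt pools. The difference was -0.50, -0.23 and -0.32 in cages 1, 2 and 3, with a mean of -0.35 (95% interval -0.74 to 0.04; limma adjusted p = 0.811). With cage as a block in limma the SE was 0.09 in place of 0.17, and the adjusted p 0.741. Across cages, the duoxa-/- pool of cage 3 lay above the wt pool of cage 2. Ces2e and Ces1f, related carboxylesterases, differed by -0.15 (SE 0.12) and -0.24 (SE 0.23). For Ces1f cage 2 gave -0.70 and cage 3 gave 0.14, and its probe set may also read related Ces1 genes.

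Aadac, an arylacetamide deacetylase that hydrolyses drugs and lipids, separated the cages about as widely as Cyp3a11. It read 6.66, 6.04 and 8.90 in duoxa-/- pools against 7.50, 6.18 and 8.36 in wt pools. The mean of cage 3 was 8.63, against 7.08 for cage 1 and 6.11 for cage 2, a 5.74-fold span (F-test adjusted p = 0.203), while the genotype difference was -0.15 (SE 0.76). Ephx2, the soluble epoxide hydrolase, read 9.71, 9.54 and 10.52 in duoxa-/- pools against 9.83, 10.08 and 10.65 in wt pools, with cage 3 0.79 above the mean of the others (F-test adjusted p = 0.321). Ephx1, the microsomal epoxide hydrolase, read 8.82, 8.70 and 9.17 in duoxa-/- pools against 8.94, 9.18 and 9.14 in wt pools, a difference of -0.19 (SE 0.13; limma adjusted p = 0.815).

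The list held 1 aldehyde and 1 alcohol dehydrogenase. Aldh1a1, which makes retinoic acid, had both cage 3 pools above the other 4, by 0.36 over the mean of cages 1 and 2 (F-test adjusted p = 0.788). Adh1, which oxidises ethanol and retinol, had both below, with a shift of -0.32 (F-test adjusted p = 0.793). Their genotype differences were -0.16 (SE 0.15) for Aldh1a1 and -0.13 (SE 0.16) for Adh1.

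Among the conjugation enzymes, the glutathione transferase Gstm3 had the largest genotype difference of the class, with 8.44, 8.23 and 9.86 in duoxa-/- pools against 9.71, 9.25 and 9.42 in wt pools. The duoxa-/- pools were 1.27 and 1.02 lower in cages 1 and 2 and 0.45 higher in cage 3, a mean of -0.62 (1.53-fold lower, SE 0.38; limma adjusted p = 0.811). A dimmer probe set of Gstm3 gave -0.08. Gstm1 read 8.72, 8.64 and 9.34 in duoxa-/- pools against 9.50, 9.12 and 9.16 in wt pools, a difference of -0.36 (SE 0.19; limma adjusted p = 0.811) with the same turn of sign in cage 3. Its other 3 probe sets gave -0.37, -0.28 and -0.08. Mu-class transferases are similar in sequence, and these probe sets may read several of them.

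Gsta3 and Gsta4 are alpha-class glutathione transferases. Gsta3 read 7.50, 7.58 and 9.05 in duoxa-/- pools against 7.80, 8.30 and 9.14 in wt pools, with cage 3 1.30 above the mean of cages 1 and 2 (F-test adjusted p = 0.203). A second, dim probe set of Gsta3 gave a cage 3 shift of 0.90. Its genotype difference was -0.37 with an SE of 0.45, or of 0.13 with cage as a block (adjusted p = 0.741). Gsta4, which detoxifies lipid aldehydes, read 9.82, 10.05 and 11.13 in duoxa-/- pools against 10.08, 9.71 and 10.64 in wt pools. It was the one conjugation gene with a positive mean difference, 0.19 (SE 0.35), and both cage 3 pools were above the other 4 (F-test adjusted p = 0.352).

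Nat8f5, of the N-acetyltransferase 8 family, had the smallest p between cages of the 34. It read 7.63, 7.61 and 8.82 in duoxa-/- pools against 7.75, 7.78 and 9.26 in wt pools. Pools of cages 1 and 2 lay within 0.18 of each other, and cage 3 was 1.35 above their mean (2.56-fold between the highest and lowest cage, F-test adjusted p = 0.0721). With array weights in the fit it passed, the one gene of the 34 to do so at that setting. It was lower in the duoxa-/- pool of every cage, by 0.12, 0.17 and 0.44.

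The remaining conjugation genes transfer sulfate or glucuronate. Sult1d1, a sulfotransferase, read 12.85, 12.50 and 12.86 in duoxa-/- pools against 12.99, 12.76 and 12.79 in wt pools, a difference of -0.11 (SE 0.12; limma adjusted p = 0.852). Sult1b1 differed by -0.05 (SE 0.11). Ugt2b5, a glucuronosyltransferase, differed by -0.18 (SE 0.20), and its cage means spanned 0.62 (F-test adjusted p = 0.551). Both Sult1b1 and Ugt2b5 had their cage 3 pools above the other 4.

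The measured efflux pumps were Abcb1a and Abcg2. Abcb1a, which encodes the P-glycoprotein of the mouse intestine, read 13.06, 12.81 and 13.68 in duoxa-/- pools against 13.17, 12.87 and 13.80 in wt pools. The pools of a cage lay within 0.12 of each other, and cage 3 was 0.76 above the mean of cages 1 and 2, 0.74 in duoxa-/- and 0.78 in wt pools (F-test adjusted p = 0.203). A second probe set of Abcb1a gave a shift of 0.58. Abcg2, the breast cancer resistance protein, read 12.93, 12.82 and 13.12 in duoxa-/- pools against 12.90, 12.95 and 12.90 in wt pools. It differed by 0.04 between genotypes (SE 0.09), its cage 3 shift was 0.11, and its cage means spanned 0.13 (F-test adjusted p = 0.922).

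**Figure D4:**
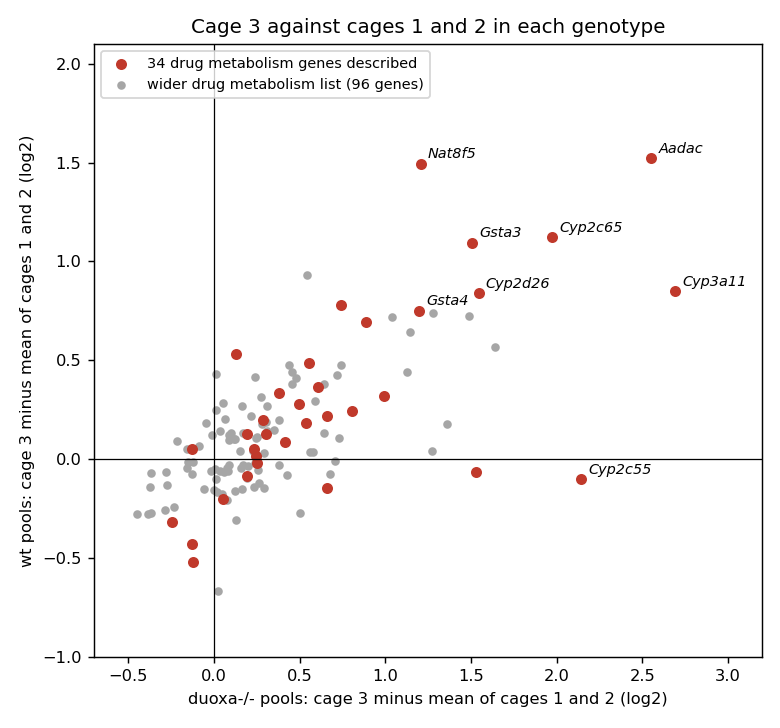
Cage 3 minus the mean of cages 1 and 2, in duoxa-/- pools (x axis) and in wt pools (y axis), both on the log2 scale, for the 34 genes (red) and the 96 measured genes of a wider drug metabolism list (grey). Cyp3a11 and Aadac lie farthest to the right at 2.69 and 2.55, Nat8f5 and Aadac highest at 1.49 and 1.52, and Cyp2c55 stands at 2.14 in duoxa-/- pools against -0.10 in wt pools.

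A wider list of drug metabolism genes outside the 39 was read from the same fits. Of 108 named, 96 were measured, and 67 of them had a difference below 0 (53.8% of all genes did), with a median of -0.08. None was called between genotypes (limma adjusted p from 0.811), and 7 had an unadjusted p under 0.05, against 5.53% of all genes. The duoxa-/- pools lay wholly below the wt pools in 9, against 6.46% of all genes, and wholly above in 1, against 5.08%. That 1 was Sult1c2, a sulfotransferase, with 8.38, 8.35 and 8.37 in duoxa-/- pools against 7.55, 7.75 and 8.08 in wt pools, a difference of 0.58 (95% interval 0.28 to 0.87). The sulfotransferases Sult2b1 (-0.25) and Sult1a1 (-0.33), the P450 genes Cyp2s1 (-0.29) and Cyp2f2 (-0.21) and the alcohol dehydrogenase Adh7 (-0.26) had the next smallest p, each with duoxa-/- pools below the wt pools and a limma adjusted p of 0.811.

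Between cages, 31 of the 96 had both cage 3 pools above the other 4, against 8.4% of all genes, and 5 had both below, against 9.16%. The smallest p values belonged to Cyp2c68, Fmo2 and Akr1c19, with cage 3 above the mean of cages 1 and 2 in each. Cyp2c68, another CYP2C gene, read 8.85, 8.54 and 9.83 in duoxa-/- pools against 9.04, 8.85 and 9.59 in wt pools (F-test adjusted p = 0.293). None of the 96 passed the F-test after adjustment, and 23 had an unadjusted p under 0.05, against 6.21% of all genes.

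Markers of other mucosal cells were set beside these results, each as the mean deviation of a list from its own mean over the 6 pools. The 34 drug metabolism genes stood at -0.27, -0.43 and 0.39 in the duoxa-/- pools of cages 1, 2 and 3, against 0.17, -0.17 and 0.32 in the wt pools. The 19 measured enterocyte markers stood at -0.15, -0.27 and 0.13 in duoxa-/- pools against 0.18, -0.02 and 0.13 in wt pools. Enterocyte markers thus had the same sign as the drug metabolism genes in every pool, over a smaller range. Their median genotype difference was -0.11, with 16 of 19 lower, against 53.8% of all genes. In 5 of the 19 both cage 3 pools lay above the other 4, against 8.4% of all genes. Over the 19, cage 3 minus the mean of cages 1 and 2 had a median of 0.11, with 17 above 0, against 47.5% of all genes. The shift ran from -0.30 for the aminopeptidase Anpep to 1.08 for the sugar transporter Slc2a2.

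The 7 ileal enterocyte markers stood at -0.08, -0.11 and 0.11 in duoxa-/- pools against 0.07, -0.08 and 0.09 in wt pools, also with the sign of the drug metabolism genes in every pool. The 16 measured crypt and proliferation markers stood at 0.08, 0.11 and -0.03 in duoxa-/- pools against -0.11, 0.03 and -0.08 in wt pools, with the opposite sign in every pool. Smooth muscle markers (12 measured) stood at 0.42 in the wt pool of cage 1 and -0.31 in its duoxa-/- pool, and between -0.15 and 0.07 in cages 2 and 3. T cell markers (10 measured) stood at 0.22, -0.26 and -0.27 in duoxa-/- pools against -0.36, 0.54 and 0.12 in wt pools. Goblet cell markers (7 measured) lay between -0.04 and 0.07, B and plasma cell markers (7) between -0.29 and 0.20, and hepatocyte and pancreas markers (10) between -0.06 and 0.19. Of the last, 5 of 10 were below the median of all probe sets, among them albumin (Alb). The brighter 5 were Cps1, Cela1, Ttr, Apoh and Prss2, and among these Ttr shifted by 0.81 and Apoh by -0.81 in cage 3. The part of these cell types in the drug metabolism values was not tested, and in a mucosal extract fewer cells of a type and less RNA per cell cannot be told apart.

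**Figure D5:**
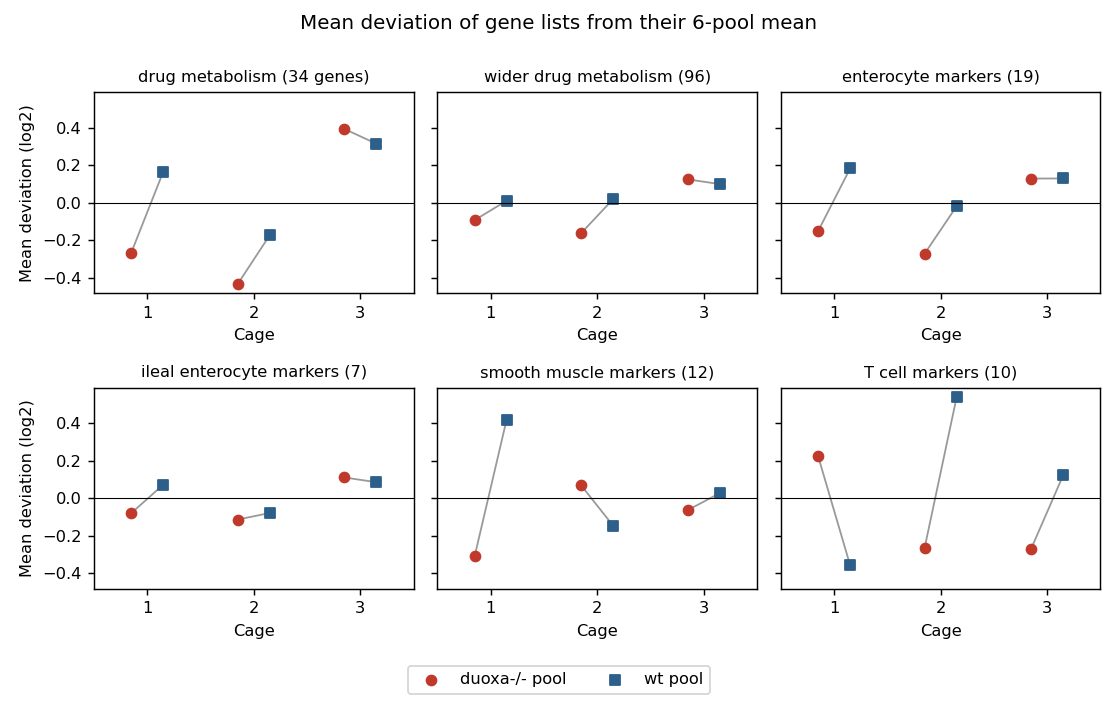
Mean deviation of each gene list from its own mean over the 6 pools (y axis, log2, shared by all panels) in cages 1, 2 and 3 (x axis), with the duoxa-/- pool (red circle) left of the wt pool (blue square). The drug metabolism genes and the enterocyte markers are both highest in cage 3 and the wt pool of cage 1, while smooth muscle and T cell markers follow other orders.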

How the data were processed

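RNA of terminal ileum was pooled from 2 to 3 animals per cage and genotype and labelled with biotin, per the labels' protocols. The deposited values are log2 probe set summaries; the authors used RMA from affy, per the submitters' processing notes; versions, settings and raw intensities were not given in the sources used here. RMA corrects background and equalises the arrays, and it compresses differences of dim probe sets. Of 45101 probe sets, 64 controls were dropped; 34945 of the rest had 1 gene symbol, 932 had several and 9160 none. The 6 columns had 0 missing values.

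For each of 18193 genes the brightest probe set on average was taken. Genotypes were compared with limma 3.58.1 under R 4.3.3 (a linear model of all 6 arrays with moderated variances, two-sided, Benjamini-Hochberg over all genes, threshold 0.05), without a cage term. For cages the moderated F-test of limma was used, adjusting for genotype. Both were run on simulated data with known answers, in which genes varied independently and the genotype data held no cage effect. That run does not show how many true differences are found in these arrays. Tables used Python 3.11.15 and pandas 2.3.3, figures matplotlib 3.10.9. SD is over 3 pools, SE and intervals are limma's. Promoters and gene names came from RefSeq tables of GRCm38.p6.

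The design text makes a cage a litter, so the 2 pools in it are paired. After subtracting genotype means, paired pools had r = -0.18, 0.16 and 0.34 over all genes in cages 1, 2 and 3. Pools of different cages had -0.44 to 0.40. Over the measured drug metabolism genes alone, paired pools had -0.19, 0.86 and 0.68, and pools of different cages -0.83 to 0.68. With cage as a block the SE of these genes fell, for Nat8f5 from 0.45 to 0.10, except for Tiparp and Abcg2. Most SEs given without a cage term thus include spread between cages. Genes and lists were chosen with earlier results of these data known. Pool values are given for the 3 genes of each class with the smallest genotype p, the 6 with the smallest p between cages and those differing 1.5-fold or more; Cyp2c55, Cyp2c65, Cyp2d26, the promoters and marker genes were chosen after their values were seen. From the wider list, the 6 genes with the smallest genotype p and the 3 with the smallest p between cages are named. Alternatives were a cage block, a filter on dim genes, other probe set choices, array weights, quantile normalization, and each pool or cage left out.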

Additional observations from a re-analysis of the deposited data

How the results depend on the processing

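The count of 0 drug metabolism genes called between genotypes held under every alternative run, and their median difference stayed below 0, whichever pool was left out; it ranged from -0.341 (cage 3 duoxa-/- pool left out) to -0.0589 (cage 2 duoxa-/- pool left out). With cage as a replicate block the median was -0.16 and 0 genes were called, so the block changed no call. The genotype count over all genes was between 0 and 1 with 1 pool left out, and 1 without cage 3. Of the 34 genes, between 23 and 32 were lower with 1 pool left out. Leaving out the duoxa-/- pool of cage 3 moved the difference of 10 genes by more than the SD of their 3 cage differences. Between cages, 2 genes in all passed; 0 did among genes at or above the median of all probe sets, with probe sets averaged per gene or after quantile normalization, and 1 did over all probe sets; with 1 pool left out the count was 0 to 53. Of the 34, 1 (Nat8f5) passed between cages with array weights, and 0 to 6 with 1 pool left out: Cyp3a11, Cyp2c65, Cyp2d26, Aadac, Gsta4 and Nat8f5 without either pool of cage 1, and Cyp3a11, Aadac, Gsta3 and Gstm3 without the wt pool of cage 3. In those fits a cage with a lone pool is assumed to vary like the others, and the cause of these changes was not tested. The median cage 3 shift of the 34, a summary chosen after seeing the data, was 0.37 and lay between 0.33 and 0.47 over the pools left out. Of the 34, 5 genes were dimmer than the median of all probe sets (Nr1i3, Cyp1a1, Ahrr, Cyp2b10 and Cyp2c29). Because RMA compresses differences of dim probe sets, changes in these genes may be understated, which was not tested.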
